A study of Mus musculus with 51 samples.

Results

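Acetylation of histone H3 at lysine 9 (H3K9ac) was compared here between zygonema and early pachynema. The members were the peaks of the H3K9ac libraries of experiment 1 at these stages, 16003 in zygonema and 7744 in early pachynema. Overlapping peaks of the 2 lists were merged, which gave 17143 sites. For scale, the series held 20 peak lists with 238528 peaks, which merge into 47440 sites. A site was called in zygonema only, in early pachynema only or at both stages, and it lay at a transcription start site (TSS) if it came within 500 bp of the 5′ end of a GENCODE M21 transcript. There was 1 library per stage among these samples, so no difference between the stages was tested, and the intervals given are 95% exact binomial intervals that cover counting error over sites only.

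The nuclei came from whole testis of adult male wild-type C57Bl/6J mice. They were fixed and sorted by flow cytometry on DNA content, the axis protein SCP3, the synaptonemal complex protein SCP1 and the testis histone H1t. The study states that the zygonema sort was the least pure and that the early pachynema sort also held some zygotene nuclei, whose part in the calls was not tested. The study also states that a replicate of the stage-specific H3K9ac ChIP-Seq was made; it was not analysed here. A call in a sorted population cannot tell a mark in more nuclei from more of the mark per nucleus. The labels of all 5 stage H3K9ac samples name an anti-H3K4me3 antibody, although their titles say H3K9Ac. The catalogue number given there, 39918, is that of the anti-H3K9ac antibody of the survey sample in the same series and in the study's methods.

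H3K9ac is placed by acetyltransferases such as KAT2A and KAT2B and marks active promoters and enhancers. In zygonema, homologous chromosomes pair while DNA double-strand breaks made at hotspots are being repaired, and the methyltransferase PRDM9 marks those hotspots with H3K4me3. In early pachynema the chromosomes are fully synapsed, repair goes on, and the germ cell turns on genes used in later spermatocytes and spermatids.

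Sequences of single sites show how far base composition varied among the members. The 200 bases at the centre of 5 sites are given on the plus strand of mm10 (GRCm38), with each CG dinucleotide in capitals. The first is the widest site called in zygonema only and the next the widest called in early pachynema only, both outside TSSs. The other three lie at the TSSs of Dmc1 (zygonema only), Ldhc (early pachynema only) and Sycp3 (both stages).
Zygonema only, in an intron of Lyst, chr13:13667286-13667485: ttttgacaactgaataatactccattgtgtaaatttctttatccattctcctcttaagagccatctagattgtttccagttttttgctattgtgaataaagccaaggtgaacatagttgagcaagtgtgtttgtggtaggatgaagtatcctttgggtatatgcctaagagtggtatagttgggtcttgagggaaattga
Early pachynema only, intergenic, chr17:27305555-27305754: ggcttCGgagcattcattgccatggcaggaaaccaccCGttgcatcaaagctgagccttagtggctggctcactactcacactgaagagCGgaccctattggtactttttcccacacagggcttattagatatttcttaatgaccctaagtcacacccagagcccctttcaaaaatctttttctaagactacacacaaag
Dmc1, chr15:79605086-79605285: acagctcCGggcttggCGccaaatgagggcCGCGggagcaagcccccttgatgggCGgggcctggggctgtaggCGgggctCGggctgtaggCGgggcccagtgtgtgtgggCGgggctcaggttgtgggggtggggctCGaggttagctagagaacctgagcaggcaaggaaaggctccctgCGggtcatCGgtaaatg
Ldhc, chr7:46861285-46861484: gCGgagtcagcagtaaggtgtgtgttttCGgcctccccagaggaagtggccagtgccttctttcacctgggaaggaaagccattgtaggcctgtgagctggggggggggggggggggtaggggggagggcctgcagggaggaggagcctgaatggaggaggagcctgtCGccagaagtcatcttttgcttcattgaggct
Sycp3, chr10:88460253-88460452: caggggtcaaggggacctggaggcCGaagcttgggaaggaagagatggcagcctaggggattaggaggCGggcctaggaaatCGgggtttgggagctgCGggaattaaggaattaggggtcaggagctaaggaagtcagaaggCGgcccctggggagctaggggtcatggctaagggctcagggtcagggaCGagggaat

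The stretch in Lyst held 0 CG and 36.5% G and C bases, against 12 CG and 68% at Dmc1. The Ldhc stretch held 3 CG and that of Sycp3 6, so single sites do not stand for their class. In class medians over the 500 bp at the site centre, sites called in zygonema only outside TSSs had a median of 5 CG and 45.8% G and C, those called in early pachynema only outside TSSs had 11 CG and 49.7%, and TSS sites called at both stages had 46 CG and 66.2%. TSS sites called at 1 stage were lower in CG than the shared ones, with medians of 28 in zygonema only and 23 in early pachynema only.

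Most H3K9ac sites of zygonema that early pachynema lacked lay away from promoters, while the sites that both stages called were nearly all promoters. Of the 17143 sites, 9464 were called in zygonema only, 6531 at both stages and 1148 in early pachynema only. Outside TSSs lay 74.9% of the sites called in zygonema only (interval 74% to 75.7%), 43.9% of those called in early pachynema only (41% to 46.8%) and 3.89% of those called at both stages (3.43% to 4.39%). Seen from the lists, 72.5% of the 8654 zygonema peaks at TSSs had a partner in early pachynema, against 3.58% of the 7349 zygonema peaks outside TSSs. The early pachynema list held only 794 peaks outside TSSs, which keeps the latter share low. Seen from that list, 90.7% of its 6950 TSS peaks and 36.5% of the 794 others had a partner in zygonema.

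**Figure D1:**
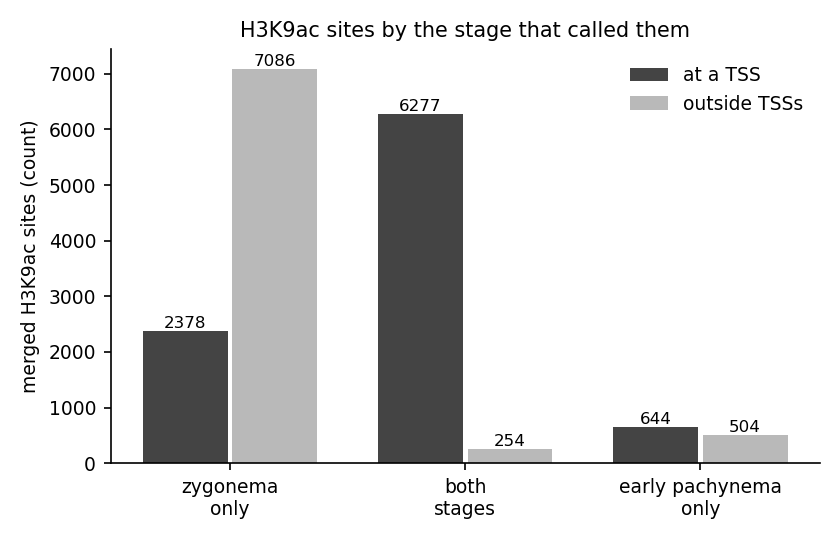
Number of merged H3K9ac sites (y axis) called in zygonema only, at both stages or in early pachynema only (x axis), with TSS sites as dark bars and sites outside TSSs as light bars. The highest bar is that of 7086 sites called in zygonema only outside TSSs, and the lowest that of 254 shared sites outside TSSs.

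The zygonema list was 2.07 times as long as that of early pachynema, and the counts of 1-stage sites depended on list length. With the widest 7744 peaks of each list, 3315 sites were called in zygonema only, 3252 in early pachynema only and 4427 at both. The share outside TSSs was then 76.5% in zygonema only and 21.2% in early pachynema only. Width did not bring the zygonema sites outside TSSs closer to early pachynema. From the narrowest to the widest decile of the zygonema list, the share of TSS peaks with an early pachynema partner went from 29.4% to 89.1%, while outside TSSs it was 3.78% in the narrowest decile and 3.36% in the widest.

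The 7086 sites called in zygonema only outside TSSs were spread over all 19 autosomes. They made up 34.3% of the sites of chromosome 7, the lowest share, and 48.7% of those of chromosome 12, the highest. By position, 46.6% lay in introns, 37% between genes and 16.4% overlapped an exon, and their centres were at a median of 10.9 kb from the nearest TSS. Their widths had a median of 631 bp, with quartiles of 369 bp and 965 bp. The sites called in early pachynema only outside TSSs lay between genes more often, 56.3% of 504.

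These zygonema sites often had an H3K4me3 call in zygonema and rarely one afterwards. The lists differed in content. The zygonema H3K4me3 lists of experiments 1 and 2 held 15699 and 11314 peaks, with 46.8% and 62.1% at TSSs. Those of early pachynema held 6647 and 4883, with 96.2% and 96.6% at TSSs, which limits the calls they can give outside TSSs. Zygonema H3K4me3 was called at 70.5% of them by experiment 1 and at 38.9% by experiment 2. In early pachynema the shares were 0.254% and 0.169%, or 18 and 12 of the 7086 sites, and diplonema had 1.02% and 2.74%. Leptonema had 20.1% and 19.1%. The H3K4me2/3 antibody, run in experiment 2, gave a peak at 58.2% of these sites in leptonema, 82.6% in zygonema and 12.1% in early pachynema. H3K9ac itself was called at 34 of them in leptonema, 8 in late pachynema and 7 in diplonema, from lists of 2823, 1727 and 516 peaks.

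An H3K4me3 peak in both zygonema libraries and in neither early pachynema library was found at 37.4% of these sites (36.3% to 38.5%), and the share depended on width. It was 69.9% when the zygonema list was held to its widest 7744 peaks. Sites with H3K4me3 in both zygonema libraries had a median H3K9ac width of 989 bp, those with it in 1 library 589 bp, and the 1990 sites with it in neither 366 bp. No peak in any of the 15 lists of the H3K4 antibodies lay at 593 sites (8.37%), whose median width was 307 bp.

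**Figure D2:**
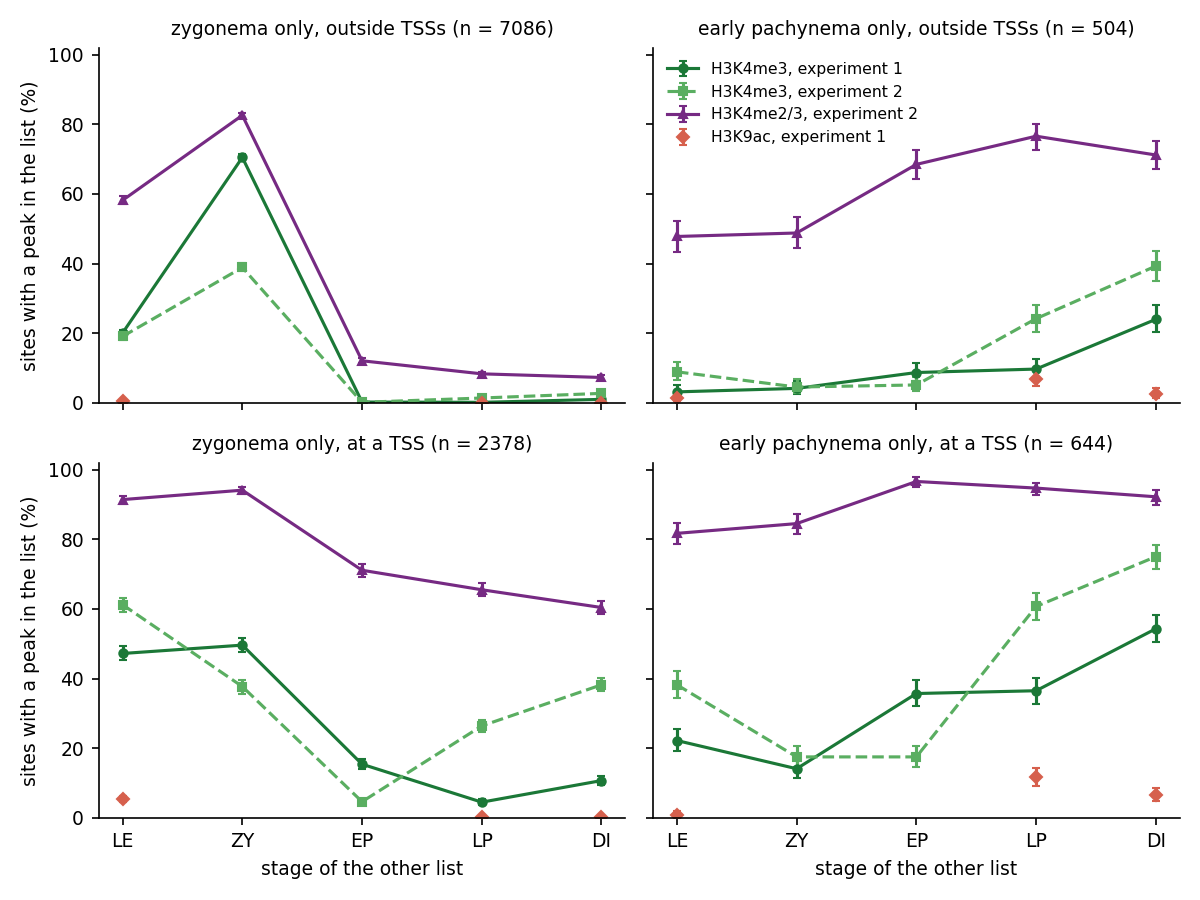
Share of sites with a peak (y axis, %) in the other lists at leptonema (LE), zygonema (ZY), early pachynema (EP), late pachynema (LP) and diplonema (DI) (x axis), for the 4 classes of 1-stage H3K9ac sites. Bars are 95% exact binomial intervals over sites, and H3K9ac is not drawn at the stages that chose the sites. H3K4me3 at sites called in zygonema only outside TSSs is at 70.5% and 38.9% in zygonema and under 1% in both early pachynema libraries, whereas at TSS sites called in early pachynema only it reaches 54.3% and 75% in diplonema.

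At the 14 break hotspots that the study annotated in its example regions of chromosomes 1, 10 and 17, zygonema had an H3K9ac peak within 500 bp of the midpoint at 13. These regions were picked as examples by the study and are no sample of all hotspots. Early pachynema had one at 0 of 14, which allows a share of up to 21.4% when 3 counts of the total are taken as the limit, or 23.2% by the exact binomial interval. Leptonema, late pachynema and diplonema also had 0, from shorter lists. H3K4me3 was called there in zygonema at 13 and 11 hotspots in experiments 1 and 2, and in early pachynema at 0 in both. The zygonema H3K9ac peaks ranged from 436 bp in an intergenic stretch of chromosome 17 to 2729 bp at chr10:92679303-92682031. Of the others, 2 lay in introns of Sdccag8 on chromosome 1, which encodes a centrosome protein.

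The centres of the zygonema-only sites outside TSSs shared short words. Words of 8 bases were counted within 100 bp of the centre, on both strands, and in 4 windows of the same length between 500 bp and 1000 bp away. Of the 505 words present at 2% or more of the centres, the one with the highest ratio was GGTGCTGC, at 3.7% of centres and 0.681% of flanking windows, followed by GATGCTGC at 3.8% and 0.826%, and GATGCTAC at 2.07% and 0.497%. These words overlap in part, since each holds TGCT. The next were GCTGCTAC, GCAGCAGC, GCAGTAGC, TAGCAGCA and AGCAGCAT. Any of the 8 words stood at 16.9% of the centres and 5.03% of the flanking windows. The words were picked for this contrast at these same sites, so the gap follows from the choice. That choice also favours this class over the others. At TSS sites any of the 8 stood at 14% of centres in zygonema only, 8.54% in early pachynema only and 9.97% at both stages. GCAGCAGC alone stood at 6.48%, 4.66% and 5.69% of these TSS centres. Any of the 8 stood at 5.56% of the centres of early-pachynema-only sites outside TSSs. Among zygonema-only sites, those with H3K4me3 in both zygonema libraries had one at 18%, those in 1 library at 19.8% and those in neither at 12%.

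Of the 13 zygonema peaks at annotated hotspots, 2 held one of these words within 100 bp of their centre, and 50 bases around it are shown on the plus strand of mm10, with the words in capitals.
Hotspot peak in Sdccag8, chr1:176887462-176887511: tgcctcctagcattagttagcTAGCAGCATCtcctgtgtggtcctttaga
Intergenic hotspot peak, chr10:92535520-92535569: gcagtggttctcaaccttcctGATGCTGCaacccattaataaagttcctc

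At early-pachynema-only sites outside TSSs the leading words were others. ACTGCGCA stood at 12 of 504 centres and 0 of 2016 flanking windows, TGCGCATG at 14 centres and 4 windows, and ACTTCCGG at 18 centres and 6 windows. ACTTCCGG was also the first word at shared sites outside TSSs, at 18 of 254 centres, and stood at 5.62% of shared TSS sites. Each is a match of letters in a window of 200 bp and shows no bound factor.

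The widest sites called in zygonema only outside TSSs were 3768 bp in an intron of Lyst (chr13:13665502-13669269), which encodes a regulator of lysosome size, 3157 bp over an exon of Abcb11 (chr2:69264479-69267635), the bile salt export pump of liver, and 3145 bp in an intergenic stretch of chromosome 1. Both zygonema libraries called H3K4me3 at each, and no library from early pachynema to diplonema did.

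At TSSs, 2378 sites were called in zygonema only. An H3K4me3 peak was present at 49.6% and 37.7% of them in zygonema, and at 15.4% and 4.63% in early pachynema. The H3K4me2/3 antibody still gave a peak at 71.1% of them in early pachynema, so that many of these promoters had an H3K4 mark without an H3K9ac call. Their H3K4me3 was not confined to zygonema: leptonema had it at 47.2% and 61.2%, late pachynema at 4.5% and 26.4%, and diplonema at 10.7% and 38.2%. In leptonema, 5.34% already had an H3K9ac peak, against 0.932% of the TSS sites called in early pachynema only.

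The widest zygonema-only sites at a TSS of a protein-coding gene were those of Myt1, Ehmt1, the histone genes Hist1h1a, Hist1h3a and Hist1h4a, Dmtn and Dock3. The site of Myt1, a zinc finger gene of neural progenitors, was 4042 bp wide. H3K4me3 was called at the site in both leptonema and both zygonema libraries and in none later. The site of Dock3, an exchange factor known from neurons, was 2858 bp wide and had the same H3K4me3 calls. It lay at 1 of several TSSs of Dock3, and counted over all of them the gene was called at both stages, with 3935 bp in zygonema and 1090 bp in early pachynema. The site of Dmtn, an actin-bundling protein, was 3055 bp wide. Ehmt1 encodes a histone H3K9 methyltransferase. Its site was 3399 bp wide and, unlike the others, had an H3K4me3 peak in both early pachynema libraries.

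At the 644 TSS sites called in early pachynema only, H3K4me3 was most frequent in diplonema. It was present at 22.2% and 38.2% of them in leptonema, 14.1% and 17.5% in zygonema, 35.7% and 17.5% in early pachynema, 36.5% and 60.7% in late pachynema and 54.3% and 75% in diplonema. Experiment 2 thus showed no higher share in early pachynema than in zygonema. The H3K4me2/3 antibody gave a peak at 84.5% of these sites in zygonema and 96.6% in early pachynema. Of these sites, 11.6% were called again for H3K9ac in late pachynema and 6.52% in diplonema, against 0.294% and 0.168% of the zygonema-only TSS sites. Where their TSS belonged to no protein-coding gene it was often that of a long noncoding RNA, at 14.9% of the sites against 8.45% in zygonema only and 1.93% at both stages.

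The widest protein-coding TSS site called in early pachynema only was that of Mroh4, 3668 bp on chromosome 15. It was followed by Ptchd3 with 2366 bp, a patched-domain protein of male germ cells, and Actl9 with 2020 bp, an actin-like protein of the sperm head. B3galnt1, a glycosyltransferase, also had 2020 bp, and Adam5, a member of the sperm surface metalloprotease family, had 1727 bp. H3K4me3 at Mroh4 was called in 1 zygonema library, in neither early pachynema library, in 1 in late pachynema and in both in diplonema. At Ptchd3 and Adam5 it was called in 0 of 2 libraries at zygonema and in 2 of 2 from early pachynema to diplonema. At Actl9 it was called in neither early pachynema library, in 1 in late pachynema and in both in diplonema. At B3galnt1 it was called in all 10 libraries.

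Early pachynema also had sites in long runs, a feature searched for after the values were seen. A run was 4 or more sites of 1 class with gaps of at most 20 kb. There were 14 such stretches among the early-pachynema-only sites, with 103 sites (8.97%) and 17.6% of the width called in that class. Among the zygonema-only sites there were 49, with 206 sites (2.18%) and at most 7 sites in one. In the early pachynema stretches, 10 of 14 overlapped no protein-coding gene.

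The longest, and the one with most sites, was chr17:27295466-27360128, with 19 early-pachynema-only sites in 64.7 kb. A shared site in the middle was 1821 bp wide in zygonema and 9893 bp in early pachynema, the widest peak of that list. The annotation places the noncoding genes Gm10505, Gm49793, Gm49794 and Gm49795 there and the microRNA genes Mir7214, Mir7216, Mir7217 and Mir7218. By number of sites, the next were chr9:67706765-67753392 with 11 sites and Mir7241 and Mir7242, and chr5:113328606-113359015 with 10 sites and Mir7230. On chromosome 7, the widest of the 7 sites in the stretch over Gm10619 and Gm21269 was 7439 bp. Together, 7 of 14 stretches overlapped a gene named Mir72 followed by a pair of digits, and 11 of the 34 such genes annotated on these chromosomes lay in them. Long noncoding precursors of pachytene piRNAs are known to be transcribed from intergenic loci in these cells; no annotation of such loci was used here.

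H3K4me3 calls did not follow H3K9ac calls along these stretches. Early pachynema had 107 H3K9ac peaks in them and 0 H3K4me3 peaks in each of its 2 libraries, so that 0 of 14 stretches had one, with the same limits of 21.4% and 23.2%. Those 2 H3K4me3 lists held 6647 and 4883 peaks, of which 96.2% and 96.6% lay at TSSs. With so few peaks outside TSSs anywhere, 0 calls here cannot show that the mark was absent. The H3K9ac peaks are the ones that chose the stretches, whereas H3K4me3 was not used. Zygonema had 4 H3K9ac peaks in them, a number kept low by the definition, since the stretches are runs of sites without a zygonema peak. Leptonema had 0, late pachynema 16 and diplonema 8, from lists shorter than that of early pachynema. H3K4me3 peaks of experiments 1 and 2 numbered 1 and 4 in leptonema, 1 and 3 in zygonema, 0 and 13 in late pachynema and 10 and 16 in diplonema. The H3K4me2/3 antibody gave 15 peaks in leptonema, 9 in zygonema, 18 in early pachynema and 51 in late pachynema.

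**Figure D3:**
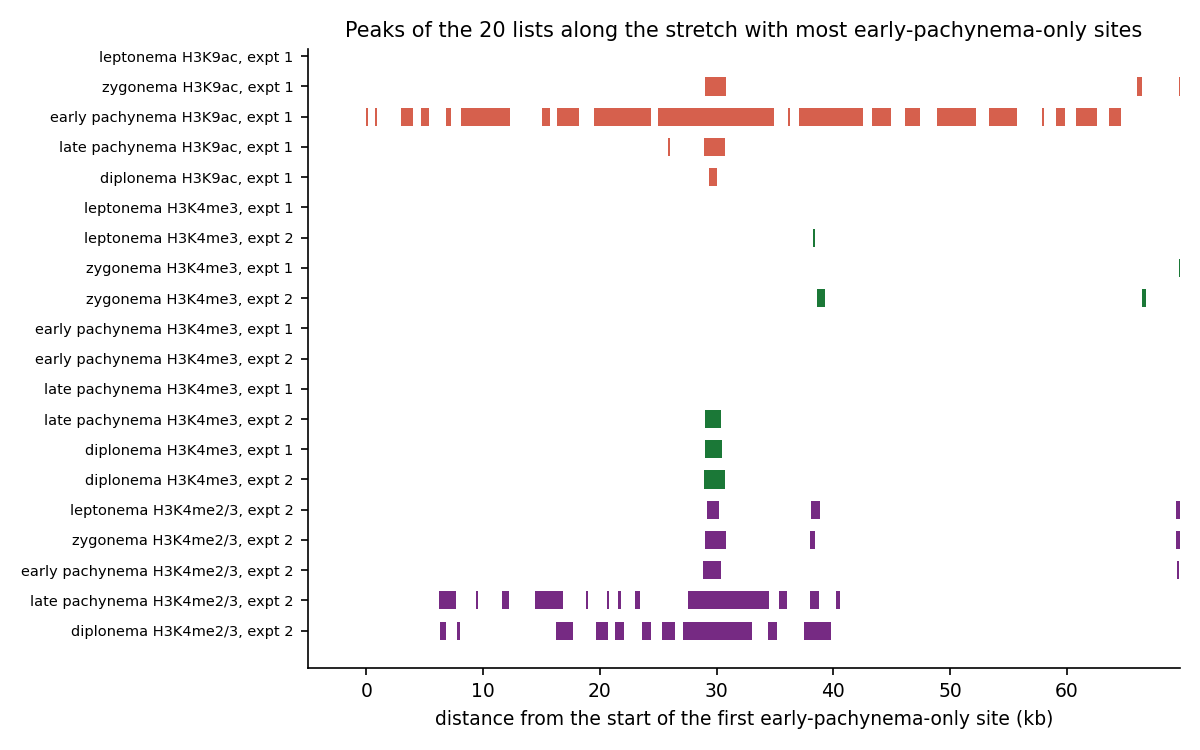
Peaks (coloured bars) of the 20 lists, 1 per line, along the stretch of chromosome 17 with most early-pachynema-only sites; the x axis is the distance in kb from its first such site. Early pachynema H3K9ac covers the stretch with 20 peaks, zygonema H3K9ac has 1, and both early pachynema H3K4me3 lines are empty inside it. The stretch was chosen for its sites without a zygonema H3K9ac peak.

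Outside TSSs, the 504 early-pachynema-only sites had few H3K4me3 calls at their own stage, 8.73% and 5.16%, and more in diplonema, 24% and 39.3%. Fewer peaks of the diplonema H3K4me3 lists lay at TSSs, 87.2% and 80.4% against 96.2% and 96.6% in early pachynema. The H3K4me2/3 antibody gave a peak at 48.8% in zygonema and 68.5% in early pachynema. The widest was 4193 bp in the chromosome 17 stretch (chr17:27303559-27307751), with no H3K4me3 peak at any stage. The next lay elsewhere on chromosome 17 (3996 bp) and on chromosome 11 (3329 bp), and both had H3K4me3 in both diplonema libraries and in neither early pachynema library. Taking TSS and other sites together, 24.7% of the early-pachynema-only sites had H3K4me3 in either early pachynema library. That share was 61% with equal list sizes, where sites with a narrow zygonema peak joined the class.

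At the 6277 TSS sites called at both stages, early pachynema peaks were the narrower. Zygonema peaks had a median width of 1045 bp and early pachynema peaks 746 bp. The median log2 ratio of early pachynema to zygonema width was -0.40 (order-statistic interval -0.43 to -0.38). Early pachynema was at least 2-fold wider at 231 sites (3.68%) and zygonema at 1574 (25.1%). H3K4me3 widths at these 6277 sites had a median log2 ratio of -0.23 in experiment 1 and -0.55 in experiment 2. At the 231 sites with the wider early pachynema H3K9ac these medians were -0.02 and -0.27, and at the 1574 sites with the wider zygonema H3K9ac they were -0.40 and -0.80, each over the sites with an H3K4me3 peak at both stages. The H3K4me2/3 antibody, with a peak at both stages at 6272 of the 6277 sites, gave a median of -0.06 over all, 0.13 at the first set and -0.18 at the second.

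Cdc20b stood first among the shared TSS sites by ratio, with 162 bp in zygonema and 3584 bp in early pachynema. It is the host gene of the Mir449 cluster, which is known to be abundant in pachytene spermatocytes. Zscan2 had 194 bp and 3948 bp, Tbl1xr1, a corepressor subunit, 294 bp and 2964 bp, Gstt2, a glutathione transferase, 510 bp and 4420 bp, and Daam1, an actin regulator, 163 bp and 1386 bp. At the other end stood Arhgap21, a GTPase-activating protein, with 2475 bp in zygonema and 159 bp in early pachynema. The site of Hist1h2ac and Hist1h2bc had 2155 bp and 159 bp, and Pex19, a peroxisome assembly factor, 3300 bp and 270 bp. The remaining ones were 1190002N15Rik (2519 bp and 201 bp) and Thap12 (2306 bp and 195 bp).

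At the level of genes, 20780 protein-coding genes of chromosomes 1 to 19 were classed by the peaks that overlapped their TSSs, and a gene's width is the sum of those peaks. A TSS peak was called in zygonema only at 1740 genes (8.37% of all), in early pachynema only at 453 (2.18%) and at both stages at 6970 (33.5%). These 3 shares are the background against which the gene lists are read. With equal list sizes 606 genes were called in zygonema only and 2419 in early pachynema only, so the order of the 2 gene classes turned with list length. Of the 453 genes, 38.6% had H3K4me3 in both diplonema libraries and in neither zygonema library, against 4.83% of the 1740 genes and 1.84% of the 6970.

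**Figure D4:**
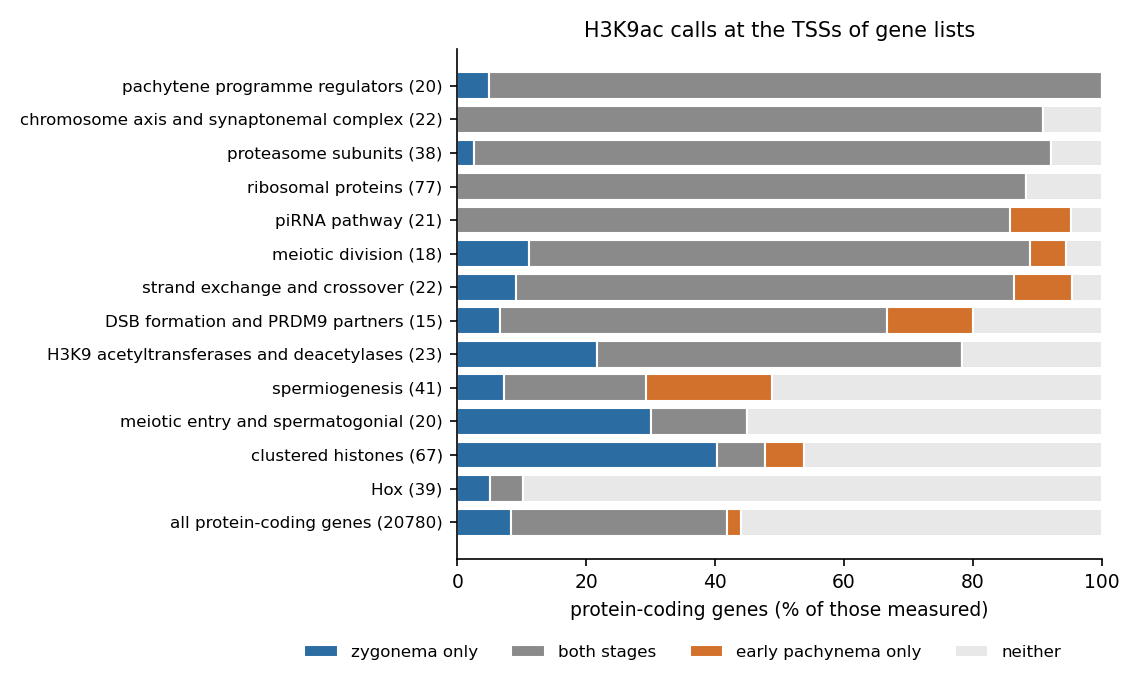
Share of the genes of each list (x axis, %) with an H3K9ac peak at a TSS in zygonema only (blue), at both stages (grey), in early pachynema only (orange) or at neither (light grey), with the number of genes measured in brackets (y axis). Orange reaches 19.5% for spermiogenesis genes against 2.18% of all genes, and blue 40.3% for clustered histones against 8.37%.

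Genes of spermatogonia and of entry into meiosis were called in zygonema only at 6 of 20 measured, in early pachynema only at 0 and at both stages at 3. The other 11 were called at neither stage, as were 55.9% of all protein-coding genes. The 6 were Sohlh2, a transcription factor of differentiating spermatogonia (1642 bp), Dmrt1, which holds back meiotic entry (1205 bp), Zbtb16 (998 bp) and Gfra1 (549 bp) of undifferentiated spermatogonia, the ubiquitin hydrolase gene Uchl1 (483 bp) and the cohesin gene Rec8 (228 bp). H3K4me3 at Sohlh2 was called in both zygonema libraries, at Dmrt1 in 1, and at the other four in neither. Stra8, the inducer of meiotic entry, had no H3K9ac peak at either stage. Dazl, an RNA-binding protein of germ cells, was called at both stages, with 1667 bp in zygonema and 2446 bp in early pachynema.

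Genes for break formation and PRDM9 partners were called at both stages at 9 of 15. Prdm9 itself had 610 bp in zygonema and 531 bp in early pachynema, and Spo11, which makes the breaks, had 279 bp and 577 bp. Zcwpw1, whose product reads the double mark that PRDM9 leaves at hotspots, had 2877 bp in zygonema and no early pachynema peak. Its H3K4me3 was called in both zygonema libraries and in neither of early pachynema. The 2 genes called in early pachynema only were Rec114, a partner of the break machinery (799 bp), and Morc2b (569 bp). Neither had H3K4me3 in a zygonema library. In early pachynema it was called in neither library at Rec114 and in 1 at Morc2b.

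The chromosome axis and synaptonemal complex had 20 of 22 genes called at both stages and 0 at 1 stage. Sycp3 had 914 bp and 1395 bp in zygonema and early pachynema, Sycp1 1333 bp and 1096 bp, and Hormad1, an axis protein, 934 bp and 1326 bp. Trip13, the ATPase that removes HORMAD proteins from synapsed axes, had 2932 bp and 629 bp, a log2 ratio of -2.22. Syce1 of the central element (677 bp and 171 bp) and the cohesin gene Stag3 (1776 bp and 594 bp) were also wider in zygonema. The list's median log2 ratio of width was -0.21, against -0.41 over the 6970 genes.

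For strand exchange and crossing over, 17 of 22 genes were called at both stages, 2 in zygonema only and 2 in early pachynema only. Dmc1, the meiotic strand exchange protein, had 1126 bp in zygonema, and Mnd1, its cofactor, had 1282 bp. H3K4me3 at Dmc1 was called in both leptonema and both zygonema libraries and in none later. At Mnd1 it was called in both zygonema libraries and in 1 each in early pachynema, late pachynema and diplonema. The H3K4me2/3 antibody gave a peak at both genes in all 5 of its lists. The 2 genes called in early pachynema only were Mcmdc2 (468 bp), needed for recombination, and Prr19 (410 bp), a crossover factor. Their H3K4me3 calls did not go the same way. Mcmdc2 had H3K4me3 in 1 zygonema and 1 early pachynema library, and Prr19 in 1 zygonema and neither early pachynema library. Among the shared genes, Meiob, which binds single-stranded DNA, was wider in early pachynema (840 bp and 1941 bp), while Msh4 (1144 bp and 265 bp) and Brca2 (918 bp and 230 bp) were wider in zygonema.

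Regulators of the pachytene programme were called at both stages at 19 of 20. Mybl1, the transcription factor that switches on pachytene genes, had 1353 bp at each stage. Hspa2, a chaperone of spermatocytes, had 691 bp in zygonema and 2471 bp in early pachynema, and Meioc, a partner of YTHDC2 in meiosis, 901 bp and 2767 bp. Ythdc2 was the gene called in zygonema only (1322 bp). Kdm2b, a histone demethylase, had 3465 bp and 757 bp.

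In the piRNA pathway 18 of 21 genes were called at both stages and 2 in early pachynema only. The 2 were Tdrd6, a scaffold of the chromatoid body (467 bp), and Tdrd1 (170 bp). H3K4me3 at Tdrd6 was called in neither zygonema library, in 1 of 2 in early pachynema and in both afterwards, whereas Tdrd1 had it in all 10 libraries. Piwil1, the PIWI protein of pachytene spermatocytes, had 590 bp in zygonema and 1151 bp in early pachynema.

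Genes of the meiotic divisions were called at both stages at 14 of 18, and most had narrower early pachynema peaks. Their median log2 ratio was -0.82, against -0.41 over the 6970 genes called at both stages. Narrower early pachynema peaks were also usual outside this list, since 27.8% of all shared TSS sites were wider in early pachynema. Within the list, Hspa2 (691 bp and 2471 bp), Dazap1 (1051 bp and 1730 bp) and Fbxo43 (433 bp and 695 bp) were wider in early pachynema than in zygonema. Plk1 had 1280 bp and 336 bp, Cdk1 1434 bp and 545 bp, and Ccnb1 869 bp and 288 bp in zygonema and early pachynema; all encode kinases or cyclins of the division. Cdc25c, the phosphatase that activates CDK1 (1501 bp), and Aurkb (608 bp) were called in zygonema only. H3K4me3 at Cdc25c was called in both leptonema libraries, in 1 in zygonema, in 0 in early pachynema and in 1 each in late pachynema and diplonema. At Aurkb it was called in 0 of 2 libraries in zygonema and in early pachynema, in 1 in late pachynema and in both in diplonema. Ccna1, the cyclin needed for the first meiotic division in males, was called in early pachynema only (504 bp), with H3K4me3 in 0 of 2 zygonema and 2 of 2 early pachynema libraries.

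**Figure D5:**
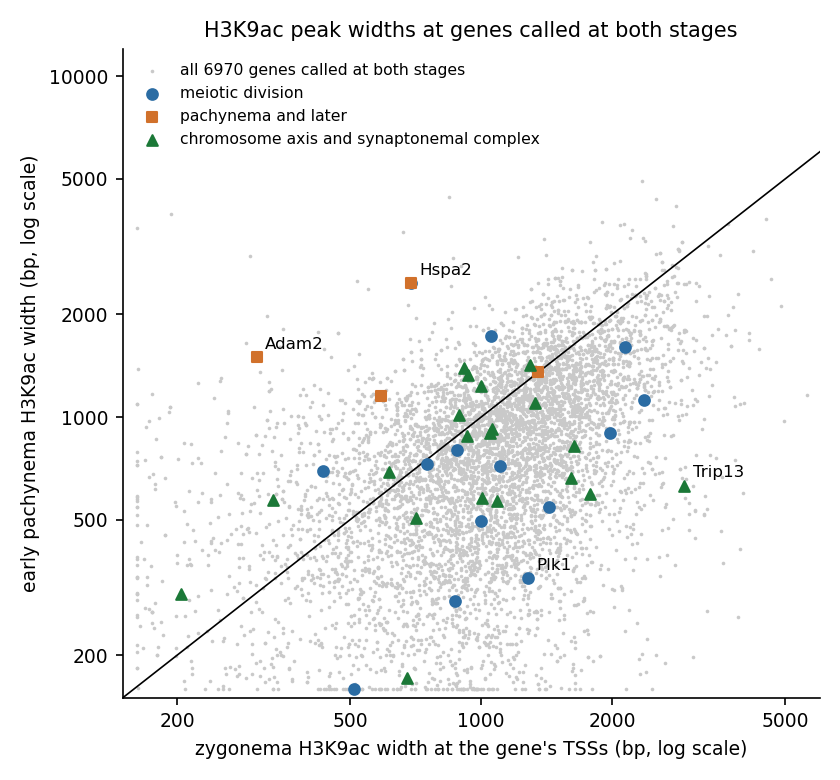
Summed width of the H3K9ac peaks at a gene's TSSs in zygonema (x axis) and early pachynema (y axis), in bp on log scales, for the 6970 genes called at both stages (grey) and for 3 lists; the line marks equal width. Most genes lie below the line, as do Plk1 and Trip13, whereas Adam2 and Hspa2 lie above it.

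Spermiogenesis genes, used when spermatids become sperm, had 8 of 41 members called in early pachynema only (19.5%), 3 in zygonema only, 9 at both and 21 at neither. The 8 were Ldhc (1444 bp), the lactate dehydrogenase of germ cells, the acrosome protease gene Acr (1228 bp), Pdha2 (813 bp) and Pgk2 (698 bp) of germ cell energy metabolism, and Spata18, Spag16, Tekt1 and Dnah17 (260 bp to 393 bp), of which Spag16, Tekt1 and Dnah17 encode parts of cilia and flagella. H3K4me3 was called in neither zygonema library at 7 of these genes, and in 1 at Spag16. In early pachynema itself it was called in both libraries at Spag16, in 1 at Ldhc and in neither at the rest. In diplonema it was called in both libraries at 7 genes, and in 1 at Pdha2. Adam2, a sperm surface protein, was called at both stages with 305 bp and 1497 bp. Genes used late in spermatids, such as Prm1, Prm2, Tnp1 and Tnp2, which encode protamines and transition proteins, had no H3K9ac peak at either stage.

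Clustered histone genes, taken by name and including testis variants, were the list most often called in zygonema only. These calls were at 27 of 67 genes (40.3%), with 4 in early pachynema only and 5 at both. Neighbouring histone genes share peaks: the zygonema list had 23 peaks at their TSSs and the early pachynema list 6. The widest covered Hist1h1a, Hist1h3a and Hist1h4a on chromosome 13 (3122 bp). Hist1h2ba and Hist1h2aa, which share a promoter and encode the testis variants of H2B and H2A, went the other way. Hist1h2ba had 1406 bp in zygonema and 1697 bp in early pachynema, and Hist1h2aa, which shares the early pachynema peak, was called in early pachynema only. The other three called in early pachynema only, Hist2h2ab, Hist2h2ac and Hist2h2be, share 1 peak of 818 bp.

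Among genes used in most cells, 68 of 77 ribosomal protein genes and 34 of 38 proteasome genes were called at both stages, 1 proteasome gene in zygonema only and none of either list in early pachynema only. Their median log2 width ratios were -0.28 and -0.13. Hox genes were called at 4 of 39. Of 23 genes for H3K9 acetyltransferases, their cofactors and deacetylases, 13 were called at both stages, 5 in zygonema only and 0 in early pachynema only. The 5 were Kat2b (658 bp), Tada2a (724 bp), Hdac5 (1165 bp), Sirt6 (497 bp) and Sirt7 (441 bp). Each still had an H3K4me3 call in early pachynema, in both libraries at Sirt7 and in 1 at the others. Of the 1740 genes called in zygonema only, 22.2% and 7.07% had one in early pachynema in experiments 1 and 2. Kat2a, the paralog of Kat2b, had 255 bp in zygonema and 220 bp in early pachynema, and Sirt1 3124 bp and 772 bp.

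Markers were read in the same way, to describe which of them had a call. No call at either stage was the state of 55.9% of all protein-coding genes, so markers without one do not measure purity. Markers of Sertoli cells (0 of 10), Leydig cells (0 of 9) and macrophages and endothelium (0 of 10) had no H3K9ac peak at either stage, and of 6 peritubular myoid markers Cnn1 had one, in zygonema (618 bp). Of 9 spermatogonial markers, 2 were called in zygonema only and 2 at both stages. Of 9 markers of zygonema and early prophase, 7 were called at both stages and Dmc1 in zygonema only, while 0 of 2 leptonema markers were called. Of 9 markers of pachynema and later, 3 were called in early pachynema only and 4 at both. Those 4 had a median log2 width ratio of 1.40, against -0.41 over all 6970 genes called at both stages. A ratio above that of all genes was not particular to them. The 7 shared markers of zygonema and early prophase had 0.51, and the 2 shared spermatogonial markers 0.9. Hist1h1t, which encodes the sorting marker H1t, had no H3K9ac peak at either stage. Of 9 round spermatid markers, Spaca1 (243 bp) and Izumo1 (211 bp) were called in zygonema only. The part of other cells in the calls was not tested.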

How the data were processed

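H3K9ac, H3K4me3 and H3K4me2/3 ChIP-Seq peak lists of 5 sorted populations were used. The authors aligned reads to mm10 with BWA (0.7.12) and called peaks per library with MACS2 (2.1.2), in broad mode with stage-matched input for H3K4me3; the control for H3K9ac is not given in the sources used here. The deposited lists hold chromosome, start and end only, on chromosomes 1 to 19, so depth and signal are unknown. A deeper or cleaner library gives a longer list and wider peaks. The 31 samples without a list were not analysed here.

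Peaks overlapping or touching were merged with Python 3.11.15 and scipy 1.17.1, and overlap was at least 1 bp. Sequence came from GRCm38.p6. Genes were named by a rule: members of fixed lists, the 5 widest protein-coding TSS sites of each 1-stage class, the 5 extremes of width ratio, and the 3 widest sites outside TSSs. Words present at 2% or more of sites were ranked. Members and lists were chosen with earlier results of these data known. Merging and classing were run on simulated lists, where 1000 of 1000 sites got their true class.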

Additional observations from a re-analysis of the deposited data

How the results depend on the processing

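The alternatives were an overlap of at least 50% of the shorter peak, a merge distance of 500 bp, TSS windows of 1000 bp, protein-coding TSSs alone, the widest 7744 zygonema peaks (equal list sizes) and the peaks wider than each list's own median. The overlap and merge alternatives moved no count by over 1.5 times and no share out of its interval. With the TSS window of 1000 bp, 71.4% of zygonema-only sites lay outside TSSs. With protein-coding TSSs the shares outside were 81.7% (zygonema only), 58% (early pachynema only) and 7.17% (both stages). With equal list sizes, which leave out narrow zygonema peaks, 3315 sites were called in zygonema only and 3252 in early pachynema only. The shares outside were then 76.5%, 21.2% and 1.63%. Genes called in zygonema only numbered 606 and in early pachynema only 2419, and the median log2 width ratio was -0.52. The H3K4me3 shares were 69.9% at zygonema-only sites outside TSSs and 61% at early-pachynema-only sites. With the peaks above the median width, 5005 sites were called in zygonema only and 2996 at both stages, and the shares outside were 53.4%, 17.5% and 1.5%. Genes called in early pachynema only numbered 725 and at both stages 3515, the width ratio was -0.23, and the H3K4me3 shares were 68% and 69.8%. The order of the 2 gene classes thus turned with equal list sizes, whereas the share outside TSSs was higher in zygonema only than in early pachynema only under each alternative that gave a share. No paired analysis was possible because 1 H3K9ac library per stage was analysed here and no test was made.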
